A study of Arabidopsis thaliana with 12 samples.

Results

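PRK, which encodes phosphoribulokinase, and SBPASE, which encodes sedoheptulose bisphosphatase, are 2 enzymes of the Calvin-Benson cycle, the pathway by which chloroplasts fix carbon dioxide. Each was measured by 1 probe that the platform annotation assigns to that gene alone. PRK is AT1G32060 on chromosome 1 and SBPASE is AT3G55800 on chromosome 3, per the RefSeq table of assembly TAIR10.1. They are 2 of the 691 genes that had a probe of their own among 3439 probes, and they were chosen by gene identity, with earlier results of these data known.

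The plants were wild-type Arabidopsis thaliana of the ecotype Landsberg. Every plant went through 12 h of darkness and was harvested 30 min after it was put back in light. The 6 water samples came from plants treated with water, and the 6 paraquat samples from plants treated with 50 µM paraquat, a herbicide of the bipyridinium class that accepts electrons at photosystem I and hands them to oxygen. In the labels it is termed a benzoquinone. The labels name whole plants and no cell type, and they give neither plant age nor pooling. They also do not say whether the numbers 1 to 6 within a group are separate plants or repeated measurements of fewer RNA samples. The p-values below therefore rest on the spread of these samples alone, and that spread may be technical.

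Phosphoribulokinase makes ribulose bisphosphate, the acceptor that Rubisco joins to carbon dioxide, and so closes the cycle. Sedoheptulose bisphosphatase removes a phosphate from the seven-carbon sugar intermediate and commits carbon to the regeneration of that acceptor. Both enzymes are active in the light and inactive in the dark. Electrons from photosystem I pass through ferredoxin to ferredoxin-thioredoxin reductase, then to thioredoxins, which reduce disulfides in both enzymes and switch them on. In the dark, phosphoribulokinase is held inactive in a complex with glyceraldehyde phosphate dehydrogenase and the small protein CP12. Transcript levels, which the array measures, say nothing of this switch in the protein.

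The deposited values are linear intensities, 1 per probe and sample, scaled by the submitters to an unstated reference. The median of a column was 0.443 to 0.491 in the water samples and 0.563 to 0.635 in the paraquat samples, so columns were quantile normalized before log2 was taken. Differences below are paraquat minus water on that log2 scale, tested with limma across all probes at an adjusted p of 0.05. Over all probes 826 were higher and 979 lower (1111 higher and 738 lower with the values as deposited). Samples with neighbouring numbers (1 with 2, 3 with 4, 5 with 6) correlated at 0.859 to 0.937 in the water group and 0.920 to 0.949 in the paraquat group (log2 values), against 0.756 to 0.866 and 0.876 to 0.929 for other pairs of samples. PRK, SBPASE and the listed genes are therefore also given with neighbours averaged, 3 against 3.

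After quantile normalization the PRK transcript was 2.36-fold lower under paraquat than under water, a log2 change of -1.24. With the values as deposited the log2 change was -0.98. Under water the deposited intensity of PRK was 0.650, 0.644, 0.734, 0.778, 1.29 and 1.40 in samples 1 to 6. Under paraquat it was 0.412, 0.335, 0.342, 0.446, 0.594 and 0.585. Every paraquat sample lay below every water sample, and samples 5 and 6 were the highest of both groups. PRK averaged 0.916 ± 0.337 (SD, n = 6) in the water group and 0.452 ± 0.114 (SD, n = 6) in the paraquat group. In bulk samples fewer cells that carry a transcript and less of it per cell cannot be told apart.

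**Figure D1:**
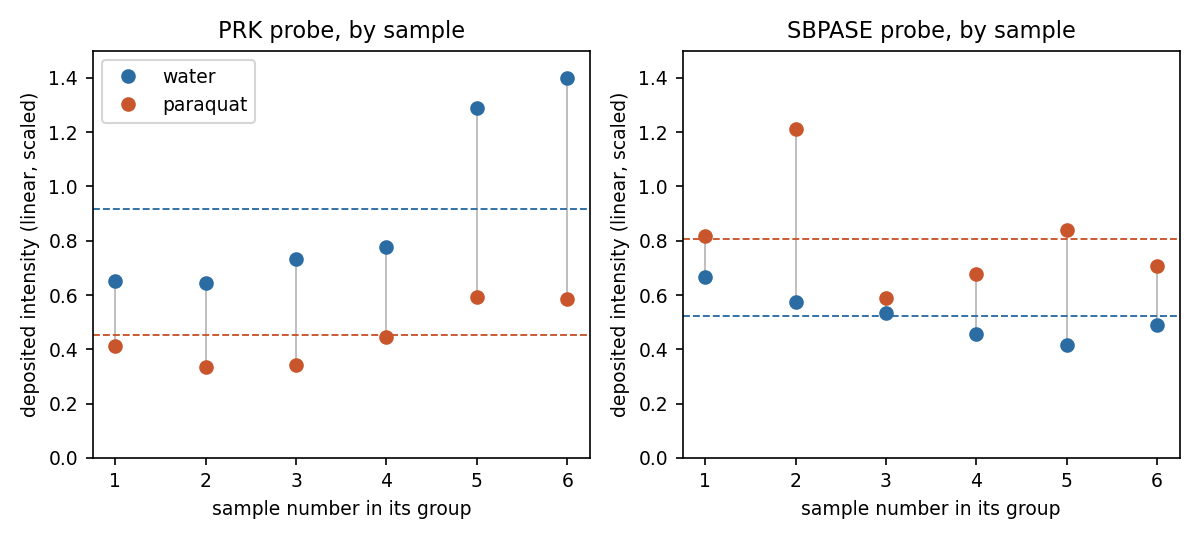
Deposited intensity (linear, scaled by the submitters) of the PRK probe, left, and the SBPASE probe, right, against the sample number; blue points are water and orange points paraquat samples, dashed lines are group means and grey lines join equal numbers. PRK is lower under paraquat at all 6 numbers, and SBPASE is higher at all 6, with overlap between the groups from 0.588 to 0.668.

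On the log2 scale after quantile normalization PRK fell by 1.24 ± 0.23 (SE, n = 6 per group, 95% interval -1.73 to -0.74, limma adjusted p = 0.000675). The background to this call is wide: 52.5% of all 3439 probes differed between the groups, with 28.5% of all probes lower and 24% higher under paraquat. The 2 groups did not overlap in 34.6% of probes (35.4% as deposited). PRK's change was lower than that of 3139 probes and higher than that of 299. Among the 692 probes with 1 gene, 53 had a lower change than PRK.

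The 6 differences between equal-numbered samples were similar for PRK. They were -1.08, -1.30, -1.29, -1.04, -1.26 and -1.47 for numbers 1 to 6, a mean of -1.24 ± 0.16 (SD, n = 6). PRK was thus lower at all 6 numbers, as were 29% of all probes. The level of PRK varied more between numbers than its change did. Averaged over neighbouring numbers, the log2 level under water was -0.42 for numbers 1 and 2, -0.27 for 3 and 4, and 0.49 for 5 and 6. Under paraquat the same averages were -1.60, -1.44 and -0.87. The order was the same in both groups, and the 3 changes were -1.19, -1.16 and -1.37. With neighbours averaged PRK was still called lower (limma adjusted p = 0.0343, where 33.7% of all probes were called).

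SBPASE did not pass the test after quantile normalization. Under water its deposited intensity was 0.668, 0.573, 0.532, 0.455, 0.415 and 0.488 in samples 1 to 6. Under paraquat it was 0.816, 1.21, 0.588, 0.679, 0.838 and 0.708. Paraquat samples 1, 2, 4, 5 and 6 exceeded every water sample, while paraquat sample 3 lay below water sample 1. SBPASE averaged 0.522 ± 0.091 (SD, n = 6) in the water group and 0.806 ± 0.217 (SD, n = 6) in the paraquat group.

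The log2 difference of SBPASE after quantile normalization was 0.29 ± 0.18 (SE, n = 6 per group, 95% interval -0.10 to 0.67, limma adjusted p = 0.195). The interval runs from a slight fall to a rise, so it neither shows a change nor shows that the level stayed the same. The differences at numbers 1 to 6 were -0.17, 0.68, -0.11, 0.35, 0.76 and 0.22. They spread more widely than those of PRK, with an SD of 0.39 (n = 6). Averaged over neighbouring numbers, the change of SBPASE was 0.25 for 1 and 2, 0.12 for 3 and 4, and 0.49 for 5 and 6, and the test on these averages gave a limma adjusted p of 0.365. SBPASE had its highest level under water in numbers 1 and 2, at a log2 mean of -0.48, against -0.92 in 3 and 4 and -0.96 in 5 and 6. That is the reverse of PRK, whose water level was lowest in numbers 1 and 2.

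The call for SBPASE depended on the scaling between columns. With the values as deposited SBPASE was higher under paraquat by 0.61 ± 0.18 (SE, n = 6 per group, limma adjusted p = 0.012), where 53.8% of probes were called, 32.3% as higher. With those values SBPASE was higher at all 6 numbers, by 0.15 to 1.08, as were 32.6% of all probes. The median change of all probes was 0.19 as deposited, -0.04 after quantile normalization and -0.16 with median centring. Measured from that median, SBPASE stood at 0.42 as deposited, 0.32 after quantile normalization and 0.42 with median centring. PRK stood at -1.17, -1.20 and -1.17 in the same order. Median centring shifts all probes of a column alike, so its values equal those as deposited by construction. Quantile normalization, which can differ, moved PRK little relative to the other probes. With position centring, described below, PRK stood at -0.88 and SBPASE at 0.76 from the median.

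**Figure D2:**
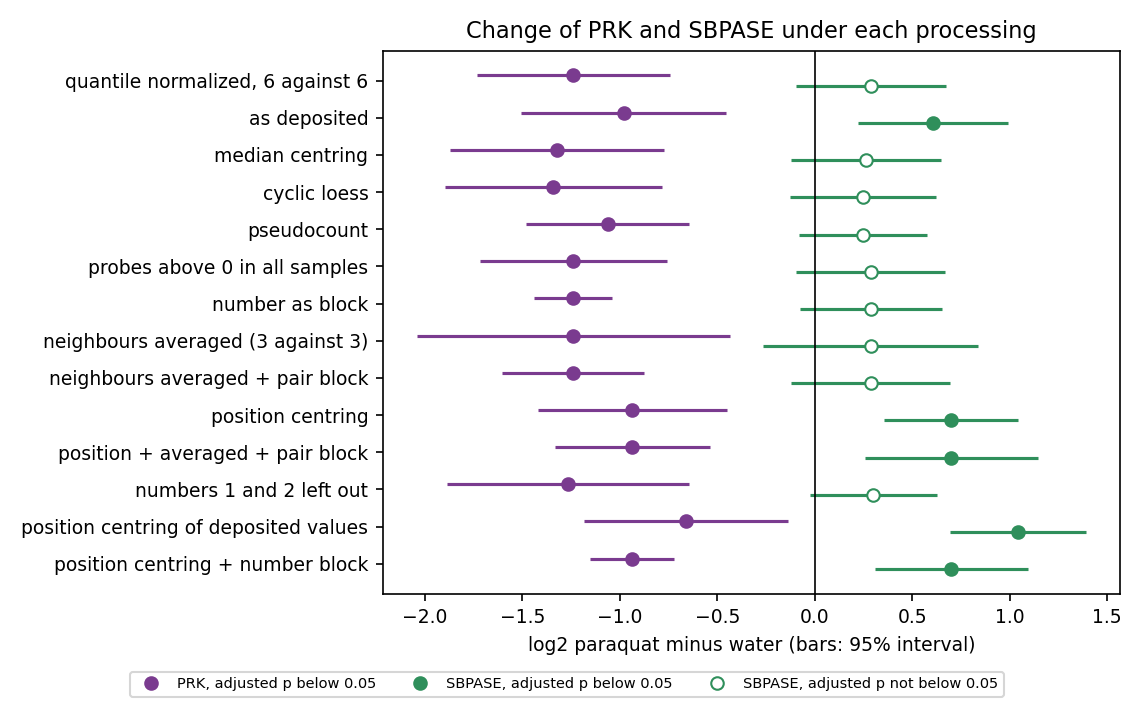
Log2 paraquat minus water of PRK (purple) and SBPASE (green) under each way of processing, with bars for 95% intervals; filled points have a limma adjusted p below 0.05 and open points do not. PRK lies between -1.34 and -0.66 and is filled throughout, while SBPASE lies between 0.25 and 1.04 and is filled with the deposited values and wherever probes were centred by position.

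The share of all probes called differed between these ways of processing. It was 52.5% to 54.1% under each of the scalings (53.8% as deposited, 53.2% with median centring, 52.5% with cyclic loess, 54.1% with a pseudocount). It was 57.4% among probes above 0 in all samples and 57.1% with the sample number as a block. Averaging neighbours gave 33.7%, or 35.7% with their pair as a block, and leaving out numbers 1 and 2 gave 49.3%. Position centring gave 46.5%, 50.1% with the number as a block, 45.8% on the deposited values and 25.4% with averaging and the pair block.

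PRK and SBPASE differed from each other in their change. In the ratio of the 2 probes within a sample, any factor applied to the whole column cancels. Quantile normalization and a pseudocount are not such factors. The log2 change of the ratio was -1.59 as deposited, -1.53 after quantile normalization and -1.31 with a pseudocount. The size of the ratio carries the unknown brightness of each probe, so only its change between groups can be read. The ratio of deposited PRK to SBPASE intensity was 0.973, 1.12, 1.38, 1.71, 3.11 and 2.86 in water samples 1 to 6. It was 0.505, 0.277, 0.582, 0.656, 0.708 and 0.825 in paraquat samples 1 to 6. All 6 paraquat ratios lay below all 6 water ratios, and the ratio was lower at all 6 numbers. Among single probes as deposited, 35.4% also separated fully, and the share for ratios of other probe pairs was not computed. The log2 ratio averaged 0.75 ± 0.70 (SD, n = 6) in the water group and -0.83 ± 0.55 (SD, n = 6) in the paraquat group.

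The log2 ratio fell by 1.59, which is 3.01-fold, with the deposited values, and by 1.53 after quantile normalization. An exact permutation test of the 12 samples, two-sided, gave p = 0.00216 for each, the smallest it can give. The test takes the 12 samples as independent. With neighbours averaged the design of 3 against 3 cannot go below 0.1, and the exact permutation test gave p = 0.1 for the same fall of 1.53. A lower ratio shows that the probes changed unequally, not that either was unchanged.

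**Figure D3:**
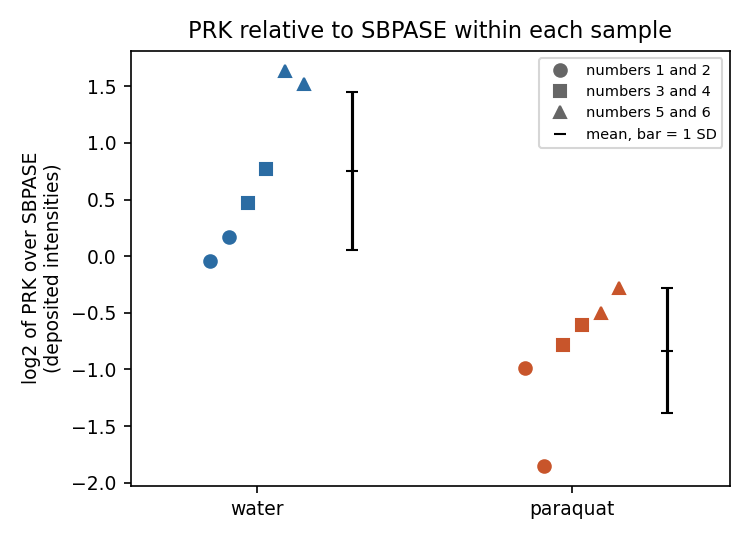
Log2 of the deposited PRK intensity over the deposited SBPASE intensity in each sample, water in blue and paraquat in orange; the marker gives the pair of neighbouring numbers and the black bar the mean with 1 SD (n = 6). Water samples lie between -0.04 and 1.64 and paraquat samples between -1.85 and -0.28, with no overlap.

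Both probes lie among probes that read low under paraquat. Over the whole table the change rose and fell at a regular interval along the probe numbers. For each sample, the median level of probes within 6 steps of a given place in that repeat was taken relative to the sample's overall median. The paraquat minus water difference of these median levels ran from -0.73 to 0.74. It was -0.30 at the step of PRK (271) and -0.41 at the step of SBPASE (77). The median change of the other nearby probes themselves was -0.38 around PRK and -0.52 around SBPASE. Of 160 other probes within 6 steps of PRK, 10 had a lower change than PRK and 150 a higher one. Of 149 other probes within 6 steps of SBPASE, 122 had a lower change than SBPASE and 27 a higher one. PRK therefore stood low and SBPASE high among the probes that share their place.

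With each sample centred by the median at the probe's step, PRK fell by 0.94 ± 0.22 (SE, n = 6 per group, limma adjusted p = 0.00453). SBPASE was then higher under paraquat by 0.70 ± 0.16 (SE, n = 6 per group, limma adjusted p = 0.00317). In that fit 46.5% of all probes were called, 20.8% as higher and 25.7% as lower. With position centring, averaging of neighbours and their pair as a block together, SBPASE was still called (limma adjusted p = 0.0464) and so was PRK (limma adjusted p = 0.0248), where 25.4% of all probes were. Whether the periodic pattern comes from the place of the probe on the array or from the order of the genes was not tested. After position centring the PRK to SBPASE log2 ratio fell by 1.64 (exact permutation test, two-sided, p = 0.00216).

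**Figure D4:**
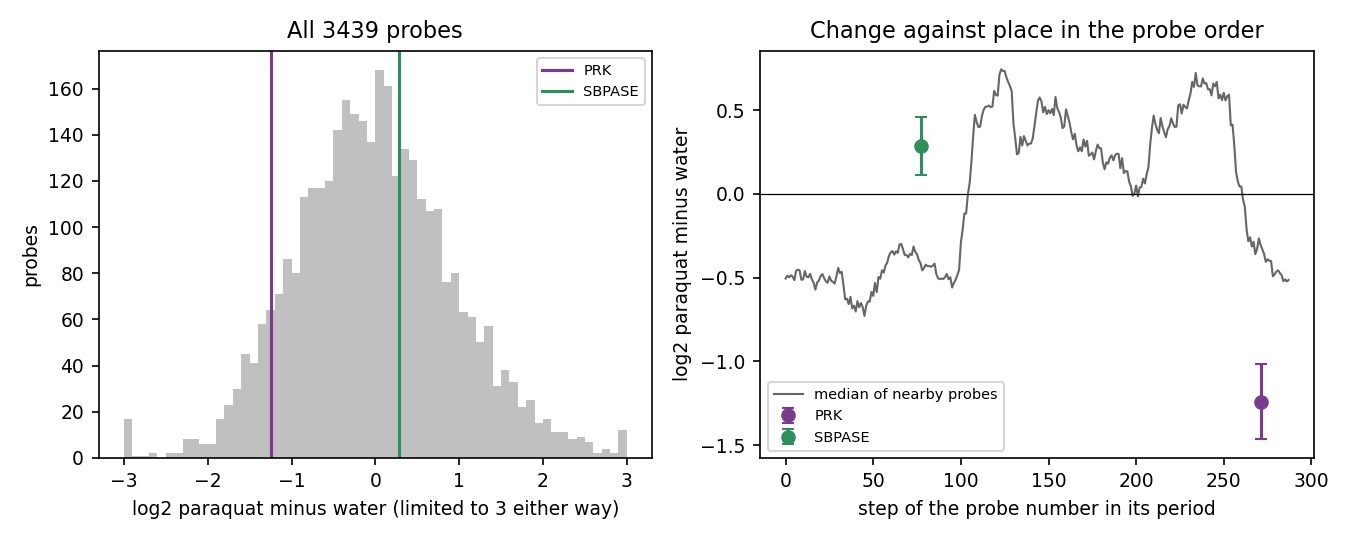
Left, the number of probes at each log2 paraquat minus water (values limited to 3 either way). Vertical lines mark PRK at -1.24 and SBPASE at 0.29. Right, the paraquat minus water difference of median log2 levels of nearby probes against the step of the probe number in its repeat. Points give the change of both genes (bars: SE). Both genes lie over low stretches of the profile, PRK below it and SBPASE above it.

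Of 26 genes listed for the Calvin-Benson cycle with its regulators CP12 and Rubisco activase, PRK and SBPASE were the 2 with a probe of their own. The other 24, among them the Rubisco small subunits, the glyceraldehyde phosphate dehydrogenases and CP12, are not analysed here, so the pair does not describe the cycle. The lists for photorespiration (12 genes), for starch synthesis and triose phosphate export (7 genes) and for root markers (8 genes) had 0 genes with a probe of their own. The makeup of the tissue could therefore not be checked on root markers. Of the 19 genes of the ferredoxin-thioredoxin system 2 had a probe, and of 7 other plastid enzymes under thiol control 2 had one. Of these 4, 1 was called higher, 2 lower and 1 did not pass, against the 24% and 28.5% of all probes given above.

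Upstream of both enzymes, FTRB (AT2G04700), the catalytic subunit of ferredoxin-thioredoxin reductase, was lower under paraquat. Its deposited intensity was 0.851, 0.764, 0.467, 0.482, 0.529 and 0.657 in water samples 1 to 6. Under paraquat it was 0.315, 0.274, 0.275, 0.316, 0.284 and 0.216. The groups did not overlap, as was true of 35.4% of all probes as deposited. The water level of FTRB was highest in numbers 1 and 2, where that of PRK was lowest. FTRB fell by 1.38 ± 0.18 (SE, n = 6 per group, limma adjusted p = 5.11e-05), and by 1.02 after position centring (adjusted p = 0.000149). With neighbours averaged its adjusted p was 0.0113. The FTRB probe sits at step 268, beside that of PRK, where the difference of median levels of nearby probes was -0.36.

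NTRC (AT2G41680), the plastid reductase that carries its own thioredoxin domain and draws on NADPH, gave a value that moved with the processing. Its deposited intensity ran from 0.521 to 0.859 under water and from 0.524 to 0.880 under paraquat, so the groups overlapped almost fully. After quantile normalization NTRC fell by 0.47 ± 0.15 (SE, n = 6 per group, limma adjusted p = 0.0181). The call was lost with the values as deposited (-0.14, adjusted p = 0.522), with a block for the sample number (adjusted p = 0.0645), with neighbours averaged (adjusted p = 0.123) and after position centring (adjusted p = 1). Without numbers 1 and 2 of both groups it was -0.73 (adjusted p = 0.000761). A probe that lists 3 plastid thioredoxin genes of the x and y types together was at -0.35 (adjusted p = 0.317).

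Downstream of the thioredoxins, NADP-MDH (AT5G58330) was higher under paraquat. This NADP-dependent malate dehydrogenase is, like PRK and SBPASE, switched on in the light by thioredoxin, and it exports surplus reducing power from the chloroplast as malate. Its deposited intensity was 0.422, 0.368, 1.06, 0.964, 1.26 and 1.23 in water samples 1 to 6. Under paraquat it was 2.42, 2.83, 2.53, 2.55, 2.88 and 2.76. The groups did not overlap, as was true of 35.4% of all probes as deposited. The paraquat samples were close together, and water samples 1 and 2 were the lowest. NADP-MDH rose 3.04-fold, a log2 rise of 1.60 ± 0.29 (SE, n = 6 per group, limma adjusted p = 0.000606). It rose by 1.54 after position centring (adjusted p = 0.000164) and by 1.16 without numbers 1 and 2 of both groups (adjusted p = 0.000144). With neighbours averaged its adjusted p was 0.0332. At its step the difference of median levels of nearby probes was 0.06.

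CHLM (AT4G25080), the magnesium protoporphyrin methyltransferase of chlorophyll synthesis, whose protein is also under thiol control, did not pass. Its log2 difference was -0.20 ± 0.13 (SE, n = 6 per group, 95% interval -0.48 to 0.08, limma adjusted p = 0.217; 0.447 with neighbours averaged). CHLM was lower at all 6 numbers after quantile normalization, and the block for the sample number gave an adjusted p of 0.0742, while with the values as deposited it was higher at 4 of 6. It was 0.16 after position centring (adjusted p = 0.255) and 0.12 with the values as deposited (adjusted p = 0.523). With position centring of the deposited values it passed as higher (0.49, adjusted p = 0.00828), so its direction depended on the processing. CHLM lies at step 75, beside SBPASE at step 77, so nearly the same nearby probes surround both. The 3 enzymes under thioredoxin control with values that can be set beside PRK thus gave 1 rise and 2 values that did not pass after quantile normalization, while PRK fell.

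**Figure D5:**
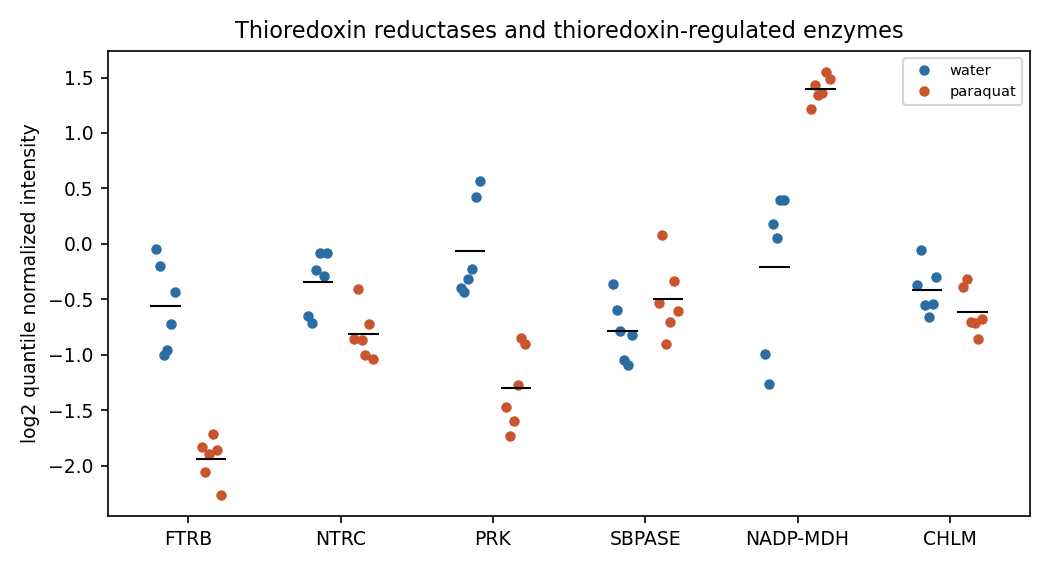
Log2 quantile normalized intensity in each sample (water blue, paraquat orange; black lines are means, n = 6) of 2 thioredoxin reductase genes (FTRB, NTRC) and 4 genes of enzymes under thioredoxin or thiol control. Heights can be compared within a gene and not between genes. The groups separate fully for FTRB, PRK and NADP-MDH and overlap for NTRC, SBPASE and CHLM. Full separation on this scale was seen in 34.6% of all probes.

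The probes whose levels over the 12 samples were most like those of PRK, among 634 other probes with 1 gene and values above 0 throughout, were AT1G28150, CSLA01 and AT2G46910. As a description, Pearson's r with PRK was 0.954, 0.949 and 0.948 over 12 samples, which share their 2 groups and their numbering. Within the 6 water samples r was 0.919, 0.876 and 0.881, and within the 6 paraquat samples 0.753, 0.837 and 0.797. CSLA01 (AT4G16590) is a cellulose synthase-like gene of the A family. AT1G28150 fell by 0.92, CSLA01 fell by 1.17 and AT2G46910 fell by 1.06 on the log2 scale, and their choice for likeness to PRK fixes that direction. After position centring AT1G28150 was at -1.17, CSLA01 at -0.70 and AT2G46910 at -0.59. The call of CSLA01 was lost with position centring of the deposited values (-0.46, adjusted p = 0.0602), and that of AT2G46910 with position centring, averaging and the pair block (adjusted p = 0.0617).

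SBPASE had no probe as close. The most similar were AT5G23540, AT2G47360 and AT3G55070, with r of 0.795, 0.750 and 0.747 over the 12 samples. Within the water samples r was 0.857, 0.912 and 0.680, and within the paraquat samples 0.776, 0.542 and 0.746. Their log2 differences of 0.24, 0.13 and 0.26 did not pass (limma adjusted p = 0.511, 0.392 and 0.363). After position centring AT5G23540 and AT3G55070 were at -0.43 and -0.23, opposite in sign to SBPASE, and AT2G47360 was at 0.08. AT5G23540 passed as higher without numbers 1 and 2 of both groups (0.36, adjusted p = 0.0372) and as lower with position centring and a block for the number (-0.43, adjusted p = 0.0197).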

How the data were processed

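Total RNA of 12 plant samples was measured on an array. The deposited values are intensities on a linear scale. Scanner, background correction and scaling are not given in the sources used here. The members and lists were chosen with earlier results of these data known. Gene names come from the annotation of the platform (692 probes with 1 gene, 870 with several, 1877 not listed). RefSeq matched 690 of the 692, and probes with several genes name none. Genes named are PRK, SBPASE, every listed gene with its own probe and the 3 probes most like each member.

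Each column held 108 to 148 zeros, which took the smallest positive value of that column. Columns were quantile normalized and log2 was taken. The main test was limma 3.58.1 (lmFit, then eBayes; R 4.3.3) with no block and Benjamini-Hochberg adjustment across the 3439 probes. The fit was tested on simulated data. Position centring subtracted each sample's median over probes within 6 steps in the repeat of the probe numbers. The numbers come from the sample labels, but their use as pairs does not. Samples were paired by number only in the differences between equal numbers and in the settings with a block. The main test did not pair them. Deviations of equal-numbered samples from their group means correlated at 0.337 to 0.505 (3186 probes above 0 throughout). Correlations between unequal numbers are not given here, so these values alone do not show that equal numbers are more alike than others. Arrays give no read depth, and the number of samples limits the precision.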

Additional observations from a re-analysis of the deposited data

How the results depend on the processing

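PRK kept its direction and its call under all 25 alternatives, between -1.34 and -0.66, and between -1.33 and -1.11 with single samples left out. A block, averaging of neighbours and the filter for probes above 0 cannot change the estimate of a gene here. Those alternatives therefore bear on the call and not on the direction. SBPASE stayed above 0 under all 25 and outside the threshold under 20, between 0.17 and 0.37 with single samples left out. It passed as deposited (0.61), with position centring (0.70, also with the replicate number as a block or with neighbours averaged and their pair as a block) and with position centring of the deposited values (1.04). Position centring of the deposited values, and position centring with the replicate number as a block, were added after seeing the data. With the replicate number as a block alone, PRK was at -1.24 (adjusted p = 8.92e-05) and SBPASE at 0.29 (adjusted p = 0.15). That block gave 1964 called probes, left the PRK to SBPASE change at -1.53 (exact permutation p = 0.0312, the smallest it can give) and, among the genes named, ended the call of NTRC only. The ratio change lost its call with neighbours averaged (-1.53, p = 0.1), with their pair as a block (-1.53, p = 0.25) and with position centring added (-1.64, p = 0.25), where these are the smallest p-values the exact permutation tests allow; single samples left out gave -1.67 to -1.33. The 1805 called probes became 1160 with neighbours averaged and 873 with position centring, averaging and the pair block together. Averaging leaves 6 columns in place of 12; averaging with the pair block alone gave 1228, and position centring alone 1598. With single samples left out 1681 to 1813 were called, and position centring of the deposited values called 1061 higher and 514 lower. Of the 6 listed genes with a probe of their own 4 were called, where 52.5% of all probes were, and 3 to 5 under the alternatives. In the alternatives other than single samples left out, 25.4% to 57.4% of all probes were called. Signs turned for CHLM as deposited (0.12), with position centring (0.16, also with either block) and with position centring of the deposited values (0.49, which passed, adjusted p = 0.00828), and in that last setting for NTRC (0.35). They also turned for AT5G23540 with position centring (-0.43, also with either block, and -0.13 as deposited), for AT3G55070 with median centring (-0.049) and position centring (-0.23, also with either block, and -0.14 as deposited), and for AT2G47360 with median centring (-0.15). The cause was not tested. The number of samples, and whether neighbouring numbers are separate samples, limit all values.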
